A study of Mus musculus with 6 samples.

Results

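Meningeal fibroblasts build the membranes that wrap the spinal cord, and 10 genes that these cells are known for were followed in bulk RNA-seq of whole mouse spinal cord. The genes were Dcn, Lum, Ogn, Igf2, Slc6a13, Slc6a20a, Slc22a6, Aldh1a2, Ptgds and Islr, and they are 10 of the 35275 genes in the deposited tables. They were chosen by name as a gauge of meninges in each library, with earlier results of these data known. RNA came from 3 Sox2 cKO mice and 3 control (Ctrl) mice on a C57BL/6 background. Per the paper, each group held females and males, in the same numbers in both groups. Which library came from which sex is not known here, so sex was not used. Sox2 cKO mice carried mGfap-Cre and Sox2fl/fl, so that Cre made from the Gfap promoter removed Sox2, which encodes a transcription factor, mainly from astrocytes. The sample labels give the Ctrl genotype as mGfap-Cre with Sox2+/+, the series description allows either mGfap-Cre or Sox2fl/fl, and the paper's methods name Sox2fl/fl littermates, so whether Ctrl mice carried Cre could not be settled. The labels state postnatal day 90, whereas the series description states day 80. Animals were perfused with cold saline before the cord was taken. How the meninges were treated at dissection is not given in the sources used here.

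The meninges consist of the dura, arachnoid and pia. Their fibroblasts secrete collagens and small leucine-rich proteoglycans, release growth factors and retinoic acid, and carry transporters that move amino acids and organic anions between cerebrospinal fluid and blood. Because they lie on the surface of the cord, their RNA enters a whole-cord extract together with that of neurons and glia. In such bulk samples, fewer fibroblasts and less RNA per fibroblast cannot be told apart.

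Libraries held 21507911 to 28392184 counts. The deposited columns carry numbers only, so libraries are named by the last digit of the column, with 2, 4 and 6 as Ctrl and 1, 3 and 5 as Sox2 cKO. Sox2, the deleted gene, had 19.9, 14.8 and 29.5 CPM (counts scaled to library size, with TMM factors) in Ctrl libraries 2, 4 and 6, whereas Sox2 cKO libraries 1, 3 and 5 had 3.16, 2.69 and 2.98 CPM. All Sox2 cKO libraries were below all Ctrl libraries. Ctrl library 6 stood apart from every other library for the genes described here, and the fold changes of those genes are given with and without it. Its total of 21983098 counts lay within the range of the other libraries.

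RefSeq promoters of the GRCm38.p6 build were available for 8 of the 10 genes, with 13 promoters in all, each spanning 250 bases before and 50 after a transcription start. They are shown because the genes move together across libraries, and the 5 below include the highest and the lowest GC content. Capitals mark matches on either strand to 5 motifs. The core of SOX sites was searched as ACAAAG and the forkhead core as GTAAACA. The TATA box was searched as TATAAA, the GC box as GGGCGG and the E-box as CACGTG. Overlapping matches run together.
Ptgds, chr2:25469700-25469999, minus strand: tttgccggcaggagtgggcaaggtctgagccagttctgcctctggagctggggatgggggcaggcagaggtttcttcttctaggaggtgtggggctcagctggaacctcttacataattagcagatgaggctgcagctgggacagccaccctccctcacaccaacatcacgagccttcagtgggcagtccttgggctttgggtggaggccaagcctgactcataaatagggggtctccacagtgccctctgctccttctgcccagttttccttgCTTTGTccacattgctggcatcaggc
Slc22a6, chr19:8617746-8618045, plus strand: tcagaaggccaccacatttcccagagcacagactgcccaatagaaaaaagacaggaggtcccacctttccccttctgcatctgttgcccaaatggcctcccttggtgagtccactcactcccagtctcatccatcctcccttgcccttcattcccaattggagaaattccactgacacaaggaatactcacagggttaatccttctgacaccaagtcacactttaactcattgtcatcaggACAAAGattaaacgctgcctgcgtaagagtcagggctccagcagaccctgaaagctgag
Ogn, chr13:49607765-49608064, plus strand: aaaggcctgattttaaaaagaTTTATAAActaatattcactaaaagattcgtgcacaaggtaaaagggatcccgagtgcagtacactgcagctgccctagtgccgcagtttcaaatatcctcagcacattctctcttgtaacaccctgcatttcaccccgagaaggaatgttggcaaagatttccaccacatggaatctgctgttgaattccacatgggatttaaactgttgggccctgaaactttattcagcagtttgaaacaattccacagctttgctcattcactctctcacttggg
Slc6a13, chr6:121300038-121300337, plus strand: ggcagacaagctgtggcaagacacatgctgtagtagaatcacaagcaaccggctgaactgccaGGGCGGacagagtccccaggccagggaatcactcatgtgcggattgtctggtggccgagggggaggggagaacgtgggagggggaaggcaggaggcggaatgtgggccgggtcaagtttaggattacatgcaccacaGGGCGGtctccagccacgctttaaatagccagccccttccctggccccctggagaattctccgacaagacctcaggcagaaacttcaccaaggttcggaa
Aldh1a2, chr9:71215539-71215838, plus strand: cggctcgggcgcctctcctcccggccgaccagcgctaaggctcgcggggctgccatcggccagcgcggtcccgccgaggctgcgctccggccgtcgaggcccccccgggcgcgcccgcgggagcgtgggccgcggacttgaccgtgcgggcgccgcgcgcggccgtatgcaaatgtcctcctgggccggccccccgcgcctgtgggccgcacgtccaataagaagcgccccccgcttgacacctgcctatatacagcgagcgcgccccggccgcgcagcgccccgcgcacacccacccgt

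The SOX letters occurred in 2 of the 13 promoters, those of Ptgds and Slc22a6, at 24 and -9 relative to the start, while 18.7% of all 32817 RefSeq promoters of this length held them. GC boxes occurred in 4 promoters, 2 of Igf2 and 1 each of Slc6a13 and Slc6a20a, against 35.6% of all promoters. TATA letters occurred in the Ogn promoter alone, against 13.6% of all promoters. The forkhead letters (3.65% of all promoters) and the E-box letters (7.15%) were in 0 of the 13. GC content ran from 42.3% in Ogn to 78.0% in Aldh1a2, where the median promoter had 52.7%. None of the motifs searched was therefore common to the 8 genes within these windows. Only exact letters were searched, so whether the genes share another motif was not tested. The shorter CAAAG, which the paper gives as the SOX2 motif, was not searched on its own.

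All 10 genes passed edgeR's filter on low counts, so every member was tested. Ptgds was the only one that rose in Sox2 cKO spinal cord, by 1.13 on the log2 scale. The other 9 had positive log2 fold changes from 0.37 to 0.67 that did not pass the test. For all 10 genes the lowest of the 6 libraries was Ctrl library 6. Without that library the log2 fold change of Ptgds was 0.76 and those of the other 9 ran from -0.03 to 0.33.

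In fragments per kilobase of gene length, scaled to library size (FPKM), which compares genes with one another, Ptgds was by far the most abundant. Its level was 636 ± 341 FPKM in Ctrl and 1490 ± 239 FPKM in Sox2 cKO (SD, n = 3). Igf2 followed at 42.5 ± 22.3 FPKM in Ctrl, and then Dcn at 21.7 ± 9.88 FPKM. Islr (12 FPKM), Ogn (11 FPKM), Aldh1a2 (7.88 FPKM), Slc6a13 (6.02 FPKM), Lum (3.52 FPKM), Slc6a20a (2.65 FPKM) and Slc22a6 (1.12 FPKM) completed the order of Ctrl means. Within libraries this order was the same for all neighbours except Islr with Ogn and Lum with Slc6a20a, which changed places between libraries.

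**Figure D1:**
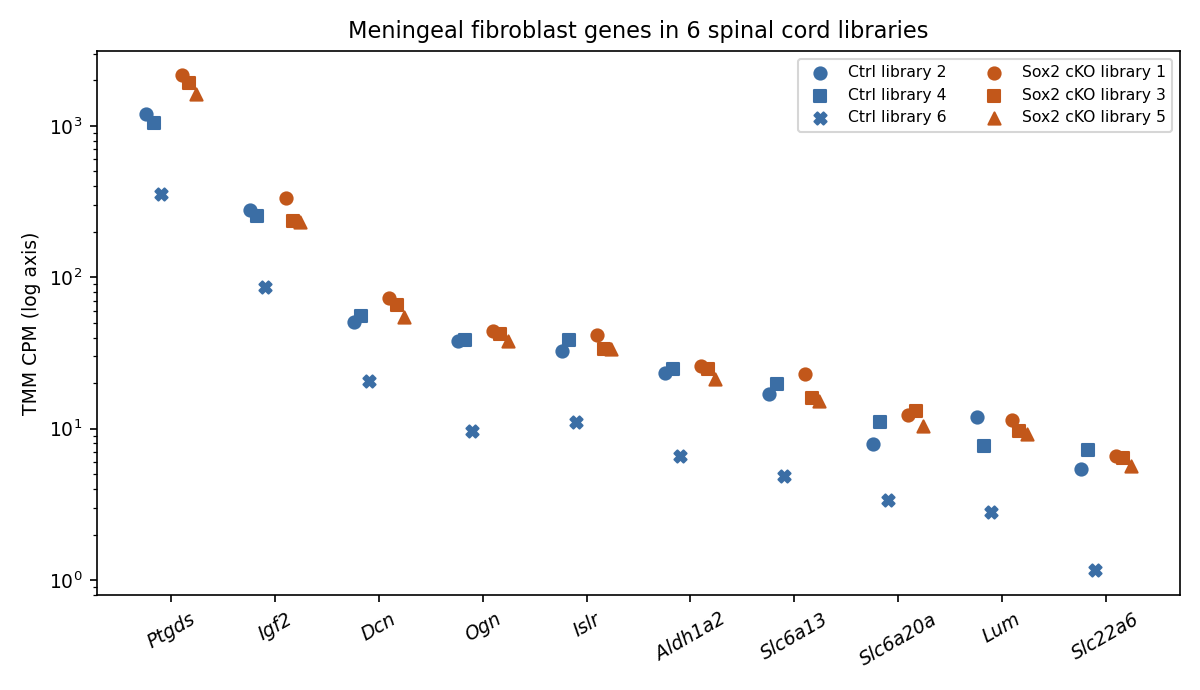
TMM-scaled CPM of the 10 genes on a log axis, with 1 point for each of the 6 libraries, Ctrl in blue and Sox2 cKO in orange, and genes ordered by mean level. Ctrl library 6 (cross) is the lowest point for every gene, and the groups are fully separated for Ptgds only.

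Ptgds encodes lipocalin-type prostaglandin D2 synthase, which makes prostaglandin D2 and is secreted into cerebrospinal fluid as beta-trace. Besides meningeal fibroblasts, oligodendrocytes and choroid plexus are known to make it. Ptgds (chr2:25466709-25470046 of GRCm38, minus strand) had 1200, 1040 and 354 CPM in Ctrl libraries 2, 4 and 6, whereas Sox2 cKO libraries 1, 3 and 5 had 2150, 1930 and 1630 CPM. All Sox2 cKO libraries lay above all Ctrl libraries. The means were 867 ± 452 CPM in Ctrl and 1900 ± 264 CPM in Sox2 cKO (SD, n = 3), a 2.19-fold rise (log2 fold change 1.13, standard error 0.34, edgeR adjusted p = 0.038 after Benjamini-Hochberg). An exact two-sided permutation test gave p = 0.1, the smallest that 3 against 3 allows. Without Ctrl library 6 the rise was 1.69-fold (log2 fold change 0.76, standard error 0.13, edgeR adjusted p = 0.037), and the groups still did not overlap. The call was lost when gene length was corrected for (log2 fold change 0.86, edgeR adjusted p = 0.098). With that correction and without Ctrl library 6 the log2 fold change was 0.5 (edgeR adjusted p = 0.054). The call was also lost with any of 4 libraries removed, although the log2 fold change stayed above 1 in those 4 fits. It was 1.04 without Sox2 cKO library 1 (edgeR adjusted p = 0.13), 1.12 without Sox2 cKO library 3 (adjusted p = 0.089), 1.23 without Sox2 cKO library 5 (adjusted p = 0.051) and 1.29 without Ctrl library 4 (adjusted p = 0.088). Few genes of any kind were called in 2 of these fits. Of 16482 genes tested without Sox2 cKO library 1, edgeR called 5 lower and 3 higher. Of 16373 tested without Ctrl library 4, it called 13 lower and 13 higher. Ptgds was the shortest of the 10 genes at 1327 bases, and across tested genes the log2 fold change had a Spearman correlation of -0.48 with length. Oligodendrocyte markers did not separate the groups, with sums of 32300 to 36200 CPM in Ctrl and 32600 to 35200 CPM in Sox2 cKO libraries. Summed choroid plexus markers were 13.1 to 19 CPM in Ctrl and 14.6 to 16.4 CPM in Sox2 cKO libraries.

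The share of members called higher was 1 of 10, where edgeR called 12.2% of all 16137 tested genes higher and 24.6% in either direction. No member was called lower, against 12.4% of tested genes, and 1 of the 10 had an unadjusted p under 0.05. DESeq2 also called 1 member higher and 0 lower, where of 15635 tested genes it called 1991 higher and 2345 lower. Only Ptgds had no overlap between groups, against 44.7% of tested genes. The median log2 fold change of the 10 genes was 0.42 and that of all tested genes 0.02.

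Dcn, Lum and Ogn encode decorin, lumican and osteoglycin, small leucine-rich proteoglycans that bind collagen fibrils. Dcn had 50.7, 55.1 and 20.7 CPM in Ctrl libraries 2, 4 and 6, whereas Sox2 cKO libraries 1, 3 and 5 had 73.4, 65.7 and 54.6 CPM. The groups overlapped only because Ctrl library 4 was slightly above Sox2 cKO library 5. The log2 fold change of Dcn was 0.61 (standard error 0.28, edgeR adjusted p = 0.13), and 0.29 without Ctrl library 6 (standard error 0.13, edgeR adjusted p = 0.15). Lum had 11.9, 7.69 and 2.80 CPM in Ctrl and 11.4, 9.65 and 9.26 CPM in Sox2 cKO libraries, in the same order. Its highest and its lowest value were both in Ctrl, and its log2 fold change was 0.43 (edgeR adjusted p = 0.41), or 0.04 without Ctrl library 6. Ogn had 38.1, 38.5 and 9.61 CPM in Ctrl and 44.1, 42.1 and 38.2 CPM in Sox2 cKO libraries. Ctrl library 4 was just above Sox2 cKO library 5 and Ctrl library 2 just below it, and the log2 fold change was 0.52 (edgeR adjusted p = 0.32), or 0.11 without Ctrl library 6. Dcn and Lum are neighbours on chromosome 10, at 97479609 to 97518143 and 97565128 to 97572703.

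Igf2 encodes insulin-like growth factor 2, an imprinted growth factor that meninges and choroid plexus release. It had 279, 254 and 85.8 CPM in Ctrl libraries 2, 4 and 6, whereas Sox2 cKO libraries 1, 3 and 5 had 336, 234 and 231 CPM. Sox2 cKO library 1 was the highest, while Sox2 cKO libraries 3 and 5 were below Ctrl libraries 2 and 4. The log2 fold change was 0.37 (standard error 0.34, edgeR adjusted p = 0.45) and became 0.00 without Ctrl library 6 (standard error 0.16). Aldh1a2 encodes retinaldehyde dehydrogenase 2, which makes retinoic acid. It had 23.5, 24.9 and 6.57 CPM in Ctrl and 26.0, 24.8 and 21.3 CPM in Sox2 cKO libraries. Outside Ctrl library 6 the levels of Aldh1a2 were close together, and its log2 fold change went from 0.38 (edgeR adjusted p = 0.45) to -0.01 without that library.

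Slc6a13 encodes GAT2, a transporter of GABA and taurine. It had 16.9, 19.7 and 4.88 CPM in Ctrl libraries 2, 4 and 6, whereas Sox2 cKO libraries 1, 3 and 5 had 23.1, 15.9 and 15.3 CPM. Ctrl library 4 was above Sox2 cKO libraries 3 and 5, and the log2 fold change of 0.38 (edgeR adjusted p = 0.48) was -0.02 without Ctrl library 6. Slc6a20a encodes SIT1, a transporter of proline and other imino acids. It had 7.94, 11.1 and 3.38 CPM in Ctrl and 12.4, 13 and 10.5 CPM in Sox2 cKO libraries. Only Ctrl library 4 reached into the Sox2 cKO range, and the log2 fold change was 0.67 (standard error 0.31, edgeR adjusted p = 0.14), or 0.33 without Ctrl library 6 (edgeR adjusted p = 0.22). Its near-identical neighbour Slc6a20b did not pass the filter, with at most 0.531 CPM.

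Slc22a6 encodes OAT1, an organic anion transporter, and was the least abundant member. It had 5.43, 7.28 and 1.16 CPM in Ctrl libraries 2, 4 and 6, whereas Sox2 cKO libraries 1, 3 and 5 had 6.59, 6.38 and 5.70 CPM. Its value in Ctrl library 6 rested on 24 counts, and Ctrl library 4 was the highest of the 6. The log2 fold change was 0.42 (edgeR adjusted p = 0.51), and -0.03 without Ctrl library 6. Islr encodes a secreted immunoglobulin-domain protein with leucine-rich repeats, also named Meflin, that marks fibroblasts and mesenchymal cells. It had 32.8, 38.6 and 11.0 CPM in Ctrl and 41.5, 33.7 and 33.5 CPM in Sox2 cKO libraries. Outside Ctrl library 6 the groups were interleaved, and the log2 fold change went from 0.39 (edgeR adjusted p = 0.40) to 0.02. Islr overlaps Islr2 on the same strand, whose 58 to 155 counts were below the 227 to 988 counts of Islr, and how shared reads were assigned is not given in the sources used here.

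**Figure D2:**
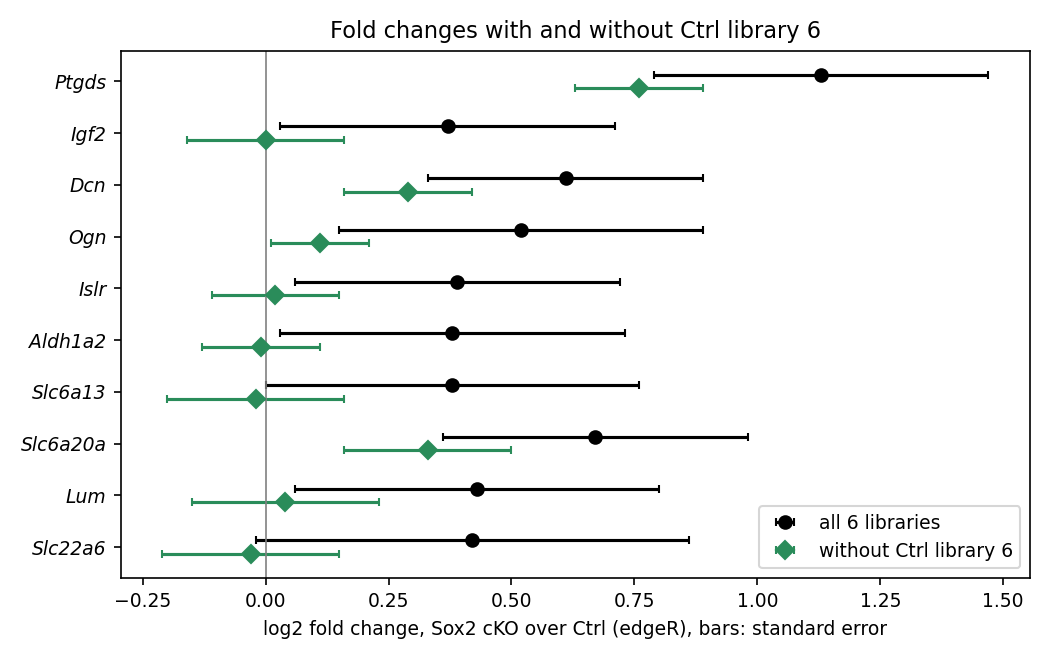
Log2 fold change of each gene, Sox2 cKO over Ctrl, from edgeR with all 6 libraries (black circles) and without Ctrl library 6 (green diamonds), with bars of 1 standard error. Every estimate moved down without Ctrl library 6, to 0.76 for Ptgds and to between -0.03 and 0.33 for the other 9 genes.

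Across the 6 libraries, the spread of the 10 genes was mainly a spread within Ctrl. The coefficient of variation was 44.5% (Dcn) to 67.9% (Slc22a6) in Ctrl and 7.3% (Ogn) to 24.3% (Slc6a13) in Sox2 cKO libraries. The mean of log2(CPM + 1) over the 10 genes was 5.27, 5.33 and 3.70 in Ctrl libraries 2, 4 and 6, whereas it was 5.62, 5.43 and 5.29 for Sox2 cKO libraries 1, 3 and 5. Ctrl libraries 2 and 4 thus sat beside Sox2 cKO library 5, and only Ctrl library 6 was far below. The 10 genes took 0.0471% of all counts in Ctrl library 6 and 0.144% to 0.289% in the other 5. Leaving out Ptgds, the other 9 summed to 146 CPM in Ctrl library 6 and to 419 to 575 CPM in the others. Sox2 cKO library 1 was the highest library for 7 of the 10 genes.

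Ctrl library 6 was the lowest library for 10 of 10 genes, against 24.2% of all tested genes. Its CPM was below 0.5 of the mean of Ctrl libraries 2 and 4 for 10 of 10 genes, against 2.7% of tested genes (435 of 16137). The ratio was lowest for Slc22a6 (0.182) and highest for Dcn (0.391), with a median of 0.296, while the median over all tested genes was 0.996. In each of the other 5 libraries, 0 members were below 0.5 of the mean of the other libraries of their group, against 0.998% to 1.73% of tested genes. For Ctrl libraries 2 and 4 that mean included Ctrl library 6, so members could hardly fall below 0.5 there. These counts of 0 therefore do not set Ctrl library 6 apart. Without Ctrl library 6, edgeR called 1 of the 10 genes, against 6.54% of 16552 tested genes, and 1 of the 10 had no overlap between groups, against 49.8%. The median log2 fold change of the members was then 0.03, beside 0.02 for all tested genes.

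**Figure D3:**
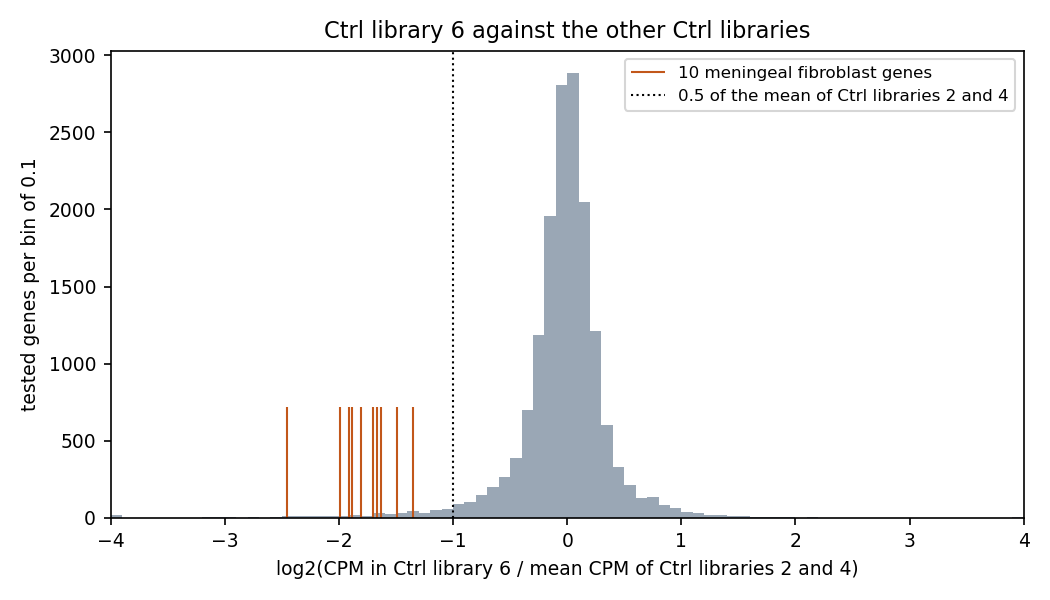
Number of tested genes by log2 ratio of CPM in Ctrl library 6 to the mean of Ctrl libraries 2 and 4 (grey bars, bins of 0.1, with genes beyond the axis collected in the outermost bins) and the ratio of each of the 10 genes (orange lines, whose height carries no value). All 10 lines lie to the left of the dotted line at 0.5 of the mean of Ctrl libraries 2 and 4.

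The 10 genes deviated from their group means together. Over the 45 pairs of genes, the Pearson correlation of log2 CPM deviations across 6 libraries was positive for 45, with a median of 0.97 and a lowest value of 0.83. Without Ctrl library 6 it was positive for 42 of 45, with a median of 0.69 and a lowest value of -0.61 over 5 libraries. All pairs share the same libraries and their scaling, so these correlations are descriptions.

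The 10 other genes most like the members, by Pearson correlation of log2 CPM deviations with the mean deviation of the members over 6 libraries among 13313 genes with a mean count of at least 50, were Ranbp3l (0.999), Map2k3 (0.999), D230025D16Rik (0.998), Fgfbp1 (0.998), Foxc2 (0.997), Thbd (0.997), Crabp2 (0.997), Airn (0.997), Mgp (0.997) and Mpzl2 (0.996). Foxc2 is a forkhead factor of mesenchyme and Crabp2 carries retinoic acid in the cell. Of the 13313 genes, 346 had a correlation of at least 0.9 over the 6 libraries. Without Ctrl library 6 the correlations of the 10 named genes were 0.91 (Mgp) to 0.98 (Map2k3) over 5 libraries. These 5 libraries were also used to pick the genes, so the high values follow in part from that choice. The size of the shift differed, since the ratio of Ctrl library 6 to the other Ctrl libraries was 0.146 for Crabp2, 0.201 for Foxc2, and 0.824 for D230025D16Rik.

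Of 25 other tested genes of meningeal fibroblasts, edgeR called 1 higher and 2 lower, against 12.2% and 12.4% of all tested genes. Counts of called genes in the lists below stand beside the same shares. Without Ctrl library 6 the share is 6.54% in either direction. Mgp, matrix Gla protein, an inhibitor of calcification, had 30.1, 29.7 and 10.2 CPM in Ctrl libraries 2, 4 and 6, whereas Sox2 cKO libraries 1, 3 and 5 had 55.6, 52.5 and 44.0 CPM. All Sox2 cKO libraries were above all Ctrl libraries for Mgp, and the log2 fold change was 1.12 (edgeR adjusted p = 0.027), or 0.76 without Ctrl library 6 (edgeR adjusted p = 0.029). Mgp, at 598 bases, is shorter than Ptgds, whose call was lost with the length correction. Fold changes of Mgp and of all other list genes, here and below, are given without that correction. Slc13a3, a dicarboxylate transporter, fell by 0.58 and Pdgfra, a growth factor receptor that oligodendrocyte precursors also carry, fell by 0.37 on the log2 scale (edgeR adjusted p = 0.014 and 0.023), and without Ctrl library 6 their log2 fold changes were -0.50 and -0.38, with neither called (adjusted p = 0.050 and 0.062). In Ctrl library 6, 12 of the 25 genes were below 0.5 of the mean of the other Ctrl libraries, among them Slc47a1 (ratio 0.166), Slc13a4 (0.231) and Twist1 (0.240). Slc13a3 (1.17) and Pdgfra (0.986) were not.

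Of 11 tested small leucine-rich proteoglycan genes beside Dcn, Lum and Ogn, edgeR called 2 higher and 0 lower (all tested genes: 12.2% and 12.4%). The median log2 fold change of the 11 genes was 0.36. Ecm2, an extracellular matrix protein, rose by 0.78 on the log2 scale (edgeR adjusted p = 0.012), and was still called without Ctrl library 6 (0.65, adjusted p = 0.037). Its CPM in Ctrl library 6 was 10.6, against 15.1 and 13.3 in Ctrl libraries 2 and 4. Omd, osteomodulin, rose by 1.08 (edgeR adjusted p = 0.041), a call that was lost without Ctrl library 6 (0.75, adjusted p = 0.078). Aspn, asporin, had a log2 fold change of 0.46 (edgeR adjusted p = 0.16), or 0.32 without Ctrl library 6.

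In the IGF axis, 2 of 13 tested genes were called higher and 2 lower (all tested genes: 12.2% and 12.4%). Igf1r, the receptor that Igf2 signals through, fell by 0.85 on the log2 scale (edgeR adjusted p = 0.013), and Igf2r, which clears Igf2, fell by 0.43 (edgeR adjusted p = 0.015). The binding proteins Igfbp3 and Igfbp7 rose by 0.71 and 0.93 (edgeR adjusted p = 0.033 and 0.032). Without Ctrl library 6, Igf1r (-0.77, adjusted p = 0.043) and Igfbp3 (0.47, adjusted p = 0.046) were still called by edgeR, while Igf2r (-0.36, adjusted p = 0.053) and Igfbp7 (0.68, adjusted p = 0.079) were not. H19, the imprinted neighbour of Igf2, had 5.97, 9.40 and 5.74 CPM in Ctrl libraries 2, 4 and 6, and its value in Ctrl library 6 was 0.748 of the mean of the other Ctrl libraries, where Igf2 stood at 0.322.

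Retinoic acid genes beside Aldh1a2 had 2 of 14 called higher and 0 lower (all tested genes: 12.2% and 12.4%). Among them was the carrier Crabp1 (log2 fold change 0.73, edgeR adjusted p = 0.046), and 0 of the 14 were called without Ctrl library 6, where Crabp1 was at 0.72 (adjusted p = 0.11). In the prostaglandin D2 list, 1 of 8 tested genes was called, Cbr1, a carbonyl reductase, with a log2 fold change of 0.70 (edgeR adjusted p = 0.021), and 0 without Ctrl library 6, where Cbr1 was at 0.60 (adjusted p = 0.070). Barrier transporters related to the members had 3 of 13 lower and 1 higher. The lower ones were Slc6a11 (-0.52), a GABA transporter of astrocytes, Slc6a9 (-0.53), a glycine transporter, and Slc13a3, with edgeR adjusted p from 0.013 to 0.014. Abcg2, an efflux pump of vessels, was higher by 0.30 (edgeR adjusted p = 0.049). Without Ctrl library 6, Slc6a11 and Slc6a9 were still called (edgeR adjusted p = 0.043 and 0.042), whereas Slc13a3 (adjusted p = 0.050) and Abcg2 (log2 fold change 0.24, adjusted p = 0.17) were not.

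Markers of other cells that lie in or on the cord were read in the same libraries. Border macrophage markers were low in Ctrl library 6 as well, with 5 of 7 below 0.5 of the mean of the other Ctrl libraries, and they summed to 11.2 CPM there, to 22.1 and 22.3 CPM in Ctrl libraries 2 and 4, and to 23.0 to 33.0 CPM in Sox2 cKO libraries. Their genes Pf4 and Cbr2 were called higher (log2 fold change 1.58 and 1.05, edgeR adjusted p = 0.033 and 0.045), and neither without Ctrl library 6 (log2 fold change 1.31 and 0.73, edgeR adjusted p = 0.10 for both). Of 8 Schwann cell markers, 2 were below 0.5 in Ctrl library 6, among them Prx (0.355), and 0 were called by edgeR, with 1 at an unadjusted p under 0.05. Skeletal muscle markers, 4 of 7 of them below 0.5 there, were highest in Sox2 cKO library 5. Pvalb, which spinal neurons also express, made up most of their sums of 146 to 174 CPM in Ctrl and 181 to 283 CPM in Sox2 cKO libraries. The 6 muscle markers without Pvalb summed to 13.7, 7.19 and 5.36 CPM in Ctrl libraries 2, 4 and 6, while the sums of Sox2 cKO libraries 1, 3 and 5 were 33.4, 4.61 and 73.8 CPM, so that Sox2 cKO library 3 was the lowest of the 6. Endothelial, pericyte and smooth muscle, astrocyte, oligodendrocyte, ependymal and choroid plexus lists had 0 genes below 0.5 in Ctrl library 6. In the other lists edgeR called Kcnj8 higher and Cspg4 lower among 10 pericyte and smooth muscle markers, Emcn higher among 10 endothelial markers, Klk6 higher among 10 oligodendrocyte markers and Foxj1 lower among 5 ependymal markers. It called Spp1 and Matn1 higher among 5 cartilage and bone markers, Mylpf and Pvalb higher among 7 skeletal muscle markers, and Fabp4 higher as the 1 fat cell marker tested. Cspg4, Spp1 and Fabp4 were still called without Ctrl library 6 (edgeR adjusted p = 0.043 for each), and the other 7 were not, with adjusted p from 0.056 (Kcnj8) to 0.12 (Matn1). None of 6 choroid plexus or 3 sensory ganglion neuron markers was called by edgeR, with 0 at an unadjusted p under 0.05. No list had a marker at 0 counts in all 6 libraries. What part the amount of meninges, nerve root or muscle in each sample had in the differences between groups was not tested.

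Of 10 astrocyte markers, read as the cells in which Sox2 was deleted, edgeR called 6 lower in Sox2 cKO and 0 higher. Over all tested genes the shares were 12.4% lower and 12.2% higher. The log2 fold change was negative for 8 of the 10 and slightly positive for Gjb6 (0.03) and Fgfr3 (0.10). Gfap led the called markers (log2 fold change -1.11, edgeR adjusted p = 0.010). Summed astrocyte markers were 8300 to 10500 CPM in Ctrl and 5890 to 6320 CPM in Sox2 cKO libraries. Of the 10 markers, 4 were called lower without Ctrl library 6. Gfap was among them (-0.93, edgeR adjusted p = 0.011). Its level in Ctrl library 6 was 1.40 of the mean of the other Ctrl libraries, the opposite side from the meningeal fibroblast genes. Gfap had the highest such ratio of the 10 astrocyte markers, whose median was 1.08. Gja1 (0.953) and Fgfr3 (0.899) were below the mean of the other Ctrl libraries.

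**Figure D4:**
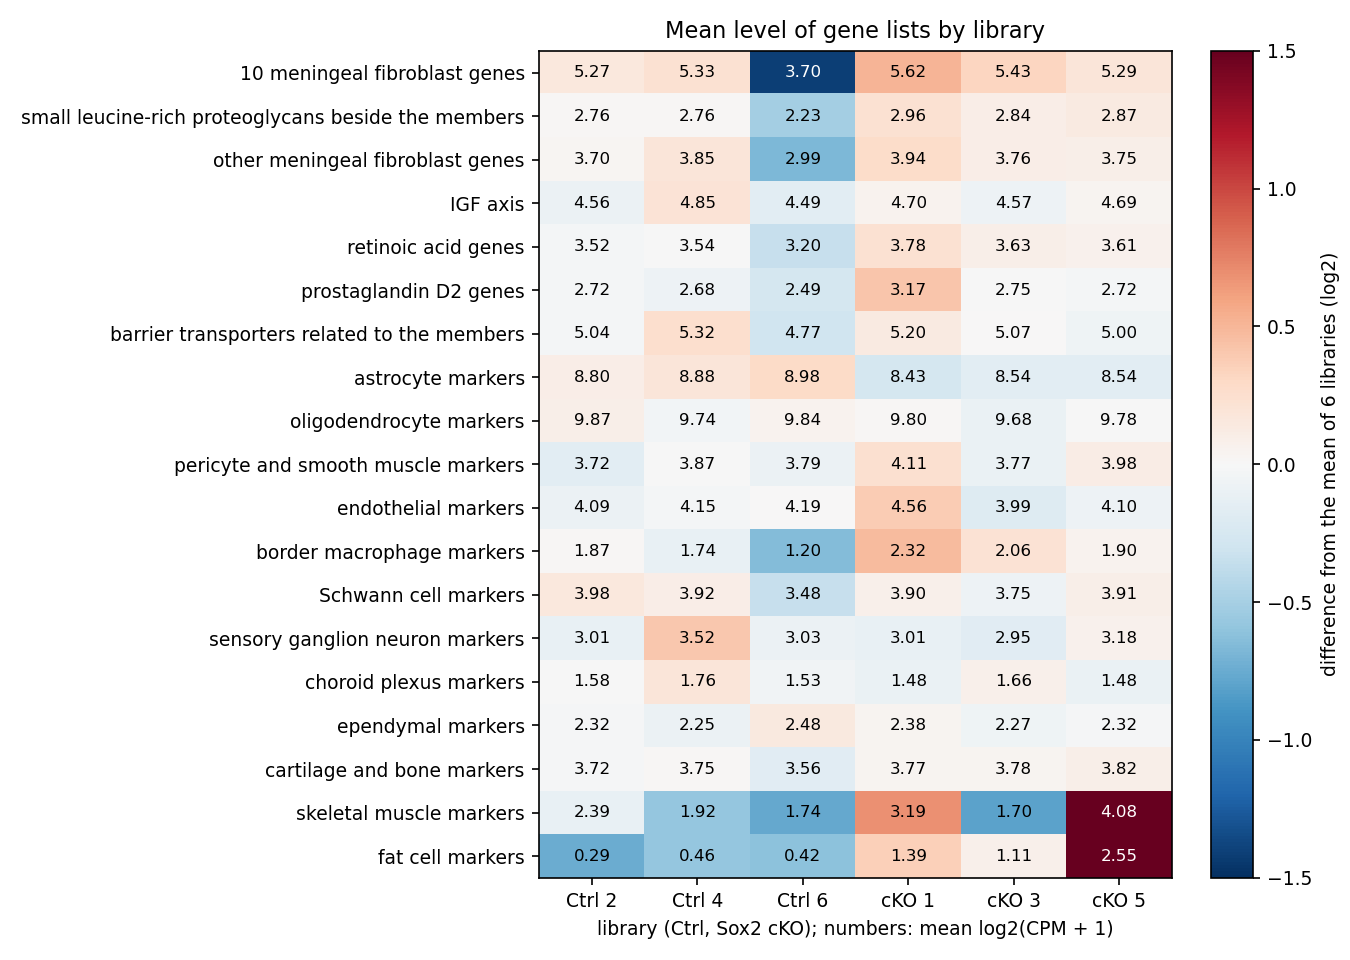
Mean log2(CPM + 1) of the tested genes of 19 lists (rows of the plot) in each library (columns), printed in each cell, with colour for the difference from the mean of the 6 libraries and the colour scale ending at 1.5 in either direction. Ctrl library 6 is lowest for the 10 meningeal fibroblast genes (3.70, against 5.27 to 5.62 elsewhere) and for border macrophage markers (1.2). It is also lowest for the lists of other meningeal fibroblast genes (2.99), small leucine-rich proteoglycans (2.23), retinoic acid (3.2), prostaglandin D2 (2.49) and IGF axis genes (4.49). The same holds for barrier transporters (4.77), Schwann cell markers (3.48) and cartilage and bone markers (3.56). It is not lowest for the remaining lists, such as oligodendrocyte markers (9.84).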

How the data were processed

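Poly(A) RNA from spinal cord of 3 Sox2 cKO and 3 Ctrl mice was sequenced from a directional kit. Per the submitters' processing notes and the paper, STAR 2.5 placed single-end reads on mm10 and HTSeq 0.6.1 counted them per gene (strand setting not given in the sources used here), and the authors deposited raw counts and FPKM values, the latter made from gene length and library total. Columns of no sample or group numbered 0. Columns were grouped by their last digit. Group means matched those that the study lists for 1999 of 1999 genes within a relative tolerance of 0.0001, and for 0 with the groups exchanged. The study counts 3 mice per group.

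Identifiers matched GENCODE annotation for 34490 of 35275 genes. In R 4.3.3, counts were tested with edgeR 4.0.16 (filterByExpr, TMM, quasi-likelihood, Benjamini-Hochberg at 0.05), without covariates, over 16137 genes, with limma 3.58.1 and DESeq2 1.42.0 as alternatives. Levels over genes used log2(CPM + 1), and deviations used a prior count of 2. Every member was named, with the called genes of each list (up to 6, or 3 for other cell types), the 10 most alike genes (mean count of 50 or more), and chromosomal neighbours, except that values of some list genes are not reported here. Other list genes given by ratio, and the muscle sum without Pvalb, were chosen after their values were seen, as were the 5 motifs and the threshold of 0.5 for Ctrl library 6. The members and lists were chosen with earlier results of these data known. Fits were tested on simulated data. Alternatives were other scalings, filters, FPKM with limma, a length correction, and leaving out each library.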

Additional observations from a re-analysis of the deposited data

How the results depend on the processing

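No paired analysis was possible because the columns carry no replicate numbers. edgeR without a filter called 2 members higher, adding Dcn (adjusted p = 0.041), the length correction called 0, and leaving out 1 library in turn gave 0 to 1. That fit without a filter called 2108 of 24442 genes higher. The length correction without Ctrl library 6, added after seeing the data, also called 0. Members called lower stayed at 0 in every fit. Members without overlap numbered 3 with upper quartile scaling, 3 on log2(FPKM + 1), and 1 to 6 with 1 library left out (6 without Ctrl library 4, 4 without Sox2 cKO library 5, 2 without Ctrl library 2). Of all tested genes, 44.7% had no overlap in the main fit and 49.8% without Ctrl library 6. The share under the other settings is not given here, so these counts are not read as a trait of the members. The median log2 fold change of the members was 0.02 to 0.76 over all fits.

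Leaving out Ctrl library 6 turned the sign for Slc6a13 (-0.02), Slc22a6 (-0.03) and Aldh1a2 (-0.01). In DESeq2 without it, also added after seeing the data, Igf2 was -0.01, Slc6a13 -0.04, Slc22a6 -0.05 and Aldh1a2 -0.03. With length correction and without it, Lum was -0.09, Slc6a13 -0.15, Aldh1a2 -0.13 and Islr -0.11. Leaving out each library in turn, the log2 fold change ran from 0.29 to 0.85 for Dcn, 0.04 to 0.93 for Lum, 0.11 to 0.79 for Ogn, 0.33 to 1.08 for Slc6a20a, 0.76 to 1.44 for Ptgds, 0.00 to 0.65 for Igf2, -0.02 to 0.72 for Slc6a13, -0.03 to 0.91 for Slc22a6, -0.01 to 0.67 for Aldh1a2 and 0.02 to 0.72 for Islr. The cause was not tested. Over the whole table, edgeR called 8 genes without Sox2 cKO library 1, 26 (13 lower, 13 higher) without Ctrl library 4, 1082 without Ctrl library 6, and with length correction 1128 lower and 981 higher. On log2(FPKM + 1), 915 were lower and 2670 higher.

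With 3 libraries per group, differences in every member are limited by the spread of Ctrl, and for Slc22a6 also by its 24 counts in Ctrl library 6.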
